A study of Mus musculus with 8 samples.

Results

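A set of 10 genes of the mural cells of blood vessels, the pericytes and the vascular smooth muscle cells, was followed in the cortex of newborn mice after a prenatal ischemia. The members were taken by name: Pdgfrb, Notch3, Rgs5, Abcc9, Anpep, Vtn, Acta2, Tagln, Cnn1 and Myh11. All 10 were found on the array with 1 probe each, and 8 of them entered the test among 19748 genes. The ischemia group held 4 male C57BL/6NCr pups whose mothers had the uterine arteries clipped shut for 14 min at E16.5 of gestation, under anesthesia. The control group held 4 male pups of the same strain, and the labels do not say whether their mothers were anesthetized or operated on. Cortex was taken from all 8 pups at postnatal day 1.5 and measured on 1 one-colour Agilent array per pup. Litters are not given in the labels, so p-values measure the spread between these pups.

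Pericytes sit within the basement membrane of capillaries, and smooth muscle cells wrap arteries and arterioles. Endothelial cells recruit both during brain vessel growth by secreting PDGF-B, which acts on the receptor encoded by Pdgfrb, and Notch3 signalling supports their maturation. Arterial smooth muscle then builds up a contractile apparatus of smooth muscle actin, myosin and calponin, while pericytes help to establish the blood-brain barrier.

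Values are given as the signal of a probe in percent of the 75th percentile of all probes on the same array, so that 100% is a probe at that percentile. Probes differ in brightness for the same amount of RNA, and levels are therefore compared between pups and not between genes. To enter the test, a probe had to be marked by the scanner software as well above background on 4 or more of the 8 arrays. Differences are ischemia minus control on the log2 scale, tested with limma over all genes and adjusted by Benjamini-Hochberg.

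The arrays were alike in quality, with 47.6% to 51.7% of spots well above background and 0 saturated. All 8 lay on 1 slide, with ischemia in row 2 and control in row 1, so slide row and group cannot be told apart. All 10 listed markers of cortical neurons were measured. Some ischemia arrays stood apart in markers of tissues that adjoin the cortex. The mean of 12 meningeal and perivascular fibroblast genes, in log2 relative to the control mean, was 1.26, -0.18, 0.37 and 0.74 in ischemia replicates 1 to 4, against -0.13 to 0.15 in the controls. Among the 12, Col1a1 was well above background on 3 ischemia arrays and 1 control array, and Slc6a13 on 4 and 2. The size of this mean therefore rests in part on control values near background. On the same scale the mean of 7 choroid plexus genes was 3.01 in ischemia replicate 4, against -0.42 to -0.02 in the other ischemia arrays and -0.09 to 0.10 in the controls. Each difference below was therefore also computed without ischemia replicates 1 and 4, a choice made after these values were seen.

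None of the 8 tested members passed the adjusted threshold of 0.05 with limma. Over all genes 1 passed, or 0.00506%. With a trended and robust variance in limma 20 genes passed, again with 0 members. Of the 8 members, 7 had a lower log2 mean in ischemia, where 57.0% of all genes did. One of the 7 is Vtn, whose mean in percent was 219% in ischemia and 217% in control. At an unadjusted p under 0.05 there were 2 members, Notch3 and Rgs5, both lower in ischemia, where 7.65% of all genes were lower, 3.25% higher and 10.9% in either direction at that level. The median difference of the 8 was -0.17, against -0.02 over all genes. Without ischemia replicates 1 and 4 7 members were lower, with a median of -0.28, and the 2 at an unadjusted p under 0.05 were Notch3 and Acta2, while Rgs5 was above it. In that setting 2247 of the 19748 genes had an unadjusted p under 0.05 with limma, in either direction. The median difference over all 19748 genes was -0.02.

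**Figure D1:**
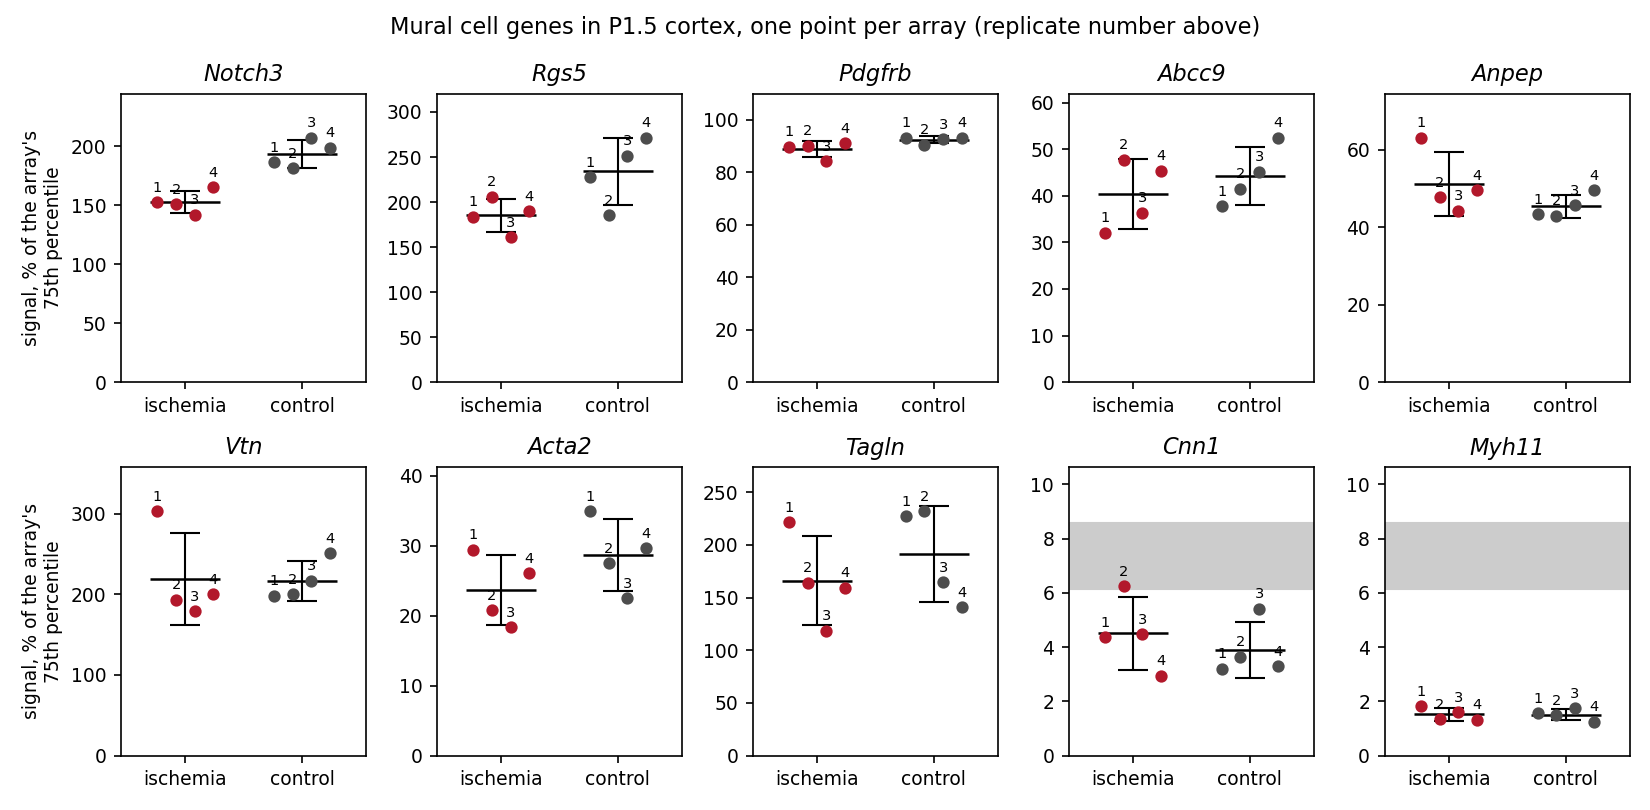
Signal of each member in percent of the array's 75th percentile, with 1 point per array, the replicate number above it, and the mean with its SD as a line and bars (4 ischemia arrays in red, 4 control arrays in grey). Notch3 is the only member whose groups do not overlap (142% to 165% in ischemia, 182% to 208% in control), and Cnn1 and Myh11 lie mostly under the grey band, the range over arrays of the lowest signal of any probe well above background.

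Notch3, the Notch receptor of mural cells, had the smallest p of the members. Its signal was 153%, 151%, 142% and 165% in ischemia replicates 1 to 4, against 186%, 182%, 208% and 199% in control replicates 1 to 4. The highest ischemia pup lay below the lowest control pup, and the groups did not overlap. Over all genes, 4.28% separated in that direction, 2.27% in the other and 6.55% in either. The group means were 153% ± 9.48 in ischemia and 194% ± 11.8 in control (SD, 4 arrays each). The difference was -0.34 with a 95% interval of -0.50 to -0.18, or 0.789-fold, and did not pass (limma unadjusted p = 0.00116, adjusted p = 0.227). By p it ranked 101 of the 19748 genes. Over 19 other settings the difference stayed between -0.40 and -0.29, and it was -0.40 without ischemia replicates 1 and 4. The probe lies on chromosome 17 from 32257848 to 32257907 of the mouse build mm9. Which cells gave the Notch3 signal was not measured. In bulk tissue, fewer cells with Notch3 RNA and less of it per cell cannot be told apart.

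The 250 bases before the annotated start of Notch3 are shown because this gene had the smallest p of the members. They are RefSeq sequence of build GRCm38.p6, minus strand, chr17:32166891-32167140, and capitals mark GGGCGG, the GC box, on either strand.
Notch3: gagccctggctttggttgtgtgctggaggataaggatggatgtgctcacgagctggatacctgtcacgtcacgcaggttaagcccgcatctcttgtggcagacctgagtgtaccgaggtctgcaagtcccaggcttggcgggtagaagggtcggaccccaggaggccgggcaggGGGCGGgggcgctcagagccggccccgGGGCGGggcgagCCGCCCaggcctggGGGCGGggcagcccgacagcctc
The motif begins 76, 49, 37 and 23 bases before the start. The copy at 37 bases is on the other strand, and none overlaps another. The motif was present, on either strand, in 32.7% of 32851 such upstream sequences, and in 3 of the 7 members that matched by symbol (Notch3, Abcc9 and Anpep). Pdgfrb, Tagln and Myh11 did not match. The match describes these letters and says nothing on binding.

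Rgs5, a regulator of G-protein signalling that is strongly expressed by brain pericytes, had a signal of 184%, 206%, 161% and 189.9% in ischemia replicates 1 to 4, against 228%, 185%, 251% and 272% in the controls. Control replicate 2 lay as low as the ischemia pups and the other 3 controls above all of them, so the groups overlapped. The means were 185% ± 18.5 in ischemia and 234% ± 37.1 in control (SD, 4 arrays each), a difference of -0.33 with an interval of -0.62 to -0.04 (limma unadjusted p = 0.0321, adjusted p = 0.411). It was -0.35 without ischemia replicates 1 and 4 (unadjusted p = 0.0955). With single arrays left out it lay between -0.44 and -0.25, with an unadjusted p under 0.05 only without ischemia replicate 2 or control replicate 2. The probe lies on chromosome 1 from 171623021 to 171623080 (mm9).

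Pdgfrb, the receptor for PDGF-B on mural cells, varied least of the members. Its signal was 89.8%, 90.1%, 84.2% and 91.1% in ischemia replicates 1 to 4, against 93.2%, 90.5%, 92.6% and 93.3% in the controls. In 3 ischemia pups it lay below every control, and replicate 4 lay within the control range. The difference of -0.06 had an interval of -0.18 to 0.06, or 0.884-fold to 1.04-fold (limma adjusted p = 0.746). The interval leaves out a difference of the size fitted for Notch3, although that of Notch3 minus Pdgfrb was not itself tested. Without ischemia replicate 3 the Pdgfrb difference was -0.033, and without ischemia replicates 1 and 4 it was -0.085. The probe lies on chromosome 18 from 61244606 to 61244665 (mm9).

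Abcc9, the sulfonylurea receptor subunit of the ATP-sensitive potassium channel of mural cells, had a signal of 32.1%, 47.8%, 36.3% and 45.4% in ischemia replicates 1 to 4, against 37.8%, 41.5%, 45.2% and 52.5% in the controls. The groups were interleaved. The difference was -0.14 with an interval of -0.48 to 0.20 (limma adjusted p = 0.793). It was -0.035 without ischemia replicate 1, -0.054 without control replicate 4, -0.227 without ischemia replicate 2, -0.212 without control replicate 1 and -0.076 without ischemia replicates 1 and 4. The probe lies on chromosome 6 from 142536920 to 142536979 (mm9).

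Anpep and Vtn were set apart by a single pup. Anpep encodes aminopeptidase N, a surface peptidase of brain pericytes that other cells of the vessel wall and myeloid cells also carry, and Vtn encodes vitronectin, a matrix protein that brain pericytes secrete. Anpep had a signal of 63.1%, 47.7%, 44.2% and 49.4% in ischemia replicates 1 to 4, against 43.3%, 43.0%, 45.6% and 49.5% in the controls. Vtn had 303%, 193%, 179% and 199.9% in the ischemia pups, against 198%, 200.2%, 217% and 251% in the controls. Both were highest in ischemia replicate 1, the array with the highest meningeal and perivascular fibroblast mean (1.26 above the control mean), and the part of that tissue in the values was not tested. Outside this array, the ischemia pups lay within or near the range of the controls for both genes. The difference of Anpep was 0.16 with an interval of -0.10 to 0.42 (limma adjusted p = 0.659), 0.055 without ischemia replicate 1, and 0.019 without ischemia replicates 1 and 4. That of Vtn was -0.010 with an interval of -0.39 to 0.37 (adjusted p = 0.989), and -0.21 without these 2 arrays.

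The Vtn probe was printed as 10 spots per array, of which 1 on control replicate 4 was an outlier and left out. All 10 spots varied by 3.02% to 5.69% (coefficient of variation). The probe is shown because its bases span 273 genomic bases of chromosome 11, from 78315393 to 78315665 on the plus strand of mm9, so that it joins separate stretches of the gene.
Vtn: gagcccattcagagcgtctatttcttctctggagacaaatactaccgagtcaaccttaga
The Anpep probe lies on chromosome 7 from 86966716 to 86966775 (mm9). The position of the probes relative to exons and UTRs was not analysed here.

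Of the 4 contractile members, 2 were measured and neither passed. Acta2, smooth muscle actin, had a signal of 29.5%, 20.8%, 18.3% and 26.1% in ischemia replicates 1 to 4, against 35.0%, 27.6%, 22.5% and 29.6% in the controls. The 2 lowest pups were ischemic, the highest was a control, and the groups overlapped. The difference was -0.28 with an interval of -0.69 to 0.13 (limma adjusted p = 0.621). Acta2 was also printed as 10 spots, which were dim and varied by 8.97% to 28.7% per array, the most in ischemia replicate 1, where 2 of the 10 were outliers and left out. With all spots kept the difference was -0.24. It was -0.54 without ischemia replicates 1 and 4 (unadjusted p = 0.0199, adjusted p = 0.352), -0.17 without ischemia replicate 3 and -0.18 without control replicate 1. The probe lies on chromosome 19 from 34316060 to 34316119 (mm9).

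Tagln, transgelin, an actin-binding protein of smooth muscle, had a signal of 222%, 164%, 119% and 159% in ischemia replicates 1 to 4, against 227%, 232%, 164% and 141% in the controls. It spread widely in both groups, with a coefficient of variation of 25.5% in ischemia and 23.8% in control. The difference of -0.21 had an interval of -0.71 to 0.30 (limma adjusted p = 0.791). It was -0.42 without ischemia replicates 1 and 4. With single arrays left out it ranged from -0.358 without ischemia replicate 1 to -0.058 without ischemia replicate 3, and it was -0.114 and -0.104 without control replicates 1 and 2 and -0.343 without control replicate 4. The probe lies on chromosome 9 from 45738097 to 45738156 (mm9).

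Cnn1 and Myh11, calponin and the smooth muscle myosin heavy chain, mark mature smooth muscle. Each probe was well above background on 0 of the 8 arrays. Cnn1 had a signal of 2.94% to 6.24% in ischemia and 3.20% to 5.42% in control. Myh11 had 1.33% to 1.81% in ischemia and 1.26% to 1.76% in control. The lowest signal of any probe well above background was 6.15% to 8.58% per array, so these members have only an upper bound and no fold is given. The Cnn1 probe lies on chromosome 9 from 21913058 to 21913117. The probe of Myh11, on chromosome 16 from 14202190 to 14202249 on the minus strand of mm9, is shown as the sequence that returned no signal for a defining gene of smooth muscle.
Myh11: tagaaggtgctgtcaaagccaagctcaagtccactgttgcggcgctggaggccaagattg

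The upstream sequence of Acta2 is shown because its CArG boxes are a textbook case of contractile gene control. The CArG box, the binding motif of serum response factor in smooth muscle genes, is capitalized in 2 forms that are each 1 letter off the consensus, CCCTATATGG and CCTTGTTTGG, and CCTTGTTTGG overlaps TGGGAA, a core recognized by the Notch partner RBPJ, also in capitals. The 250 bases are RefSeq sequence of GRCm38.p6, minus strand, chr19:34255374-34255623.
Acta2: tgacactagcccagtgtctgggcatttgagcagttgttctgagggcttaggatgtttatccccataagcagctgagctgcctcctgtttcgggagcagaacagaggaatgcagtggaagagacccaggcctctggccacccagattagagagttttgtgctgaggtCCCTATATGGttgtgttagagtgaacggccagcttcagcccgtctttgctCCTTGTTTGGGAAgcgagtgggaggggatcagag
The motifs begin 84, 34 and 27 bases before the start. On either strand, CCCTATATGG occurred in 0.0274%, CCTTGTTTGG in 0.0578% and TGGGAA in 21.6% of the 32851 upstream sequences. These are exact runs of letters. The consensus CArG box was found in 1.47% of the sequences and 0 members, and a box with up to 1 letter off, the looser form these runs meet, in 18.6%. Among the 7 matched members, boxes with up to 1 letter off were found for Acta2 alone, and TGGGAA for Acta2, Abcc9 and Vtn.

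**Figure D2:**
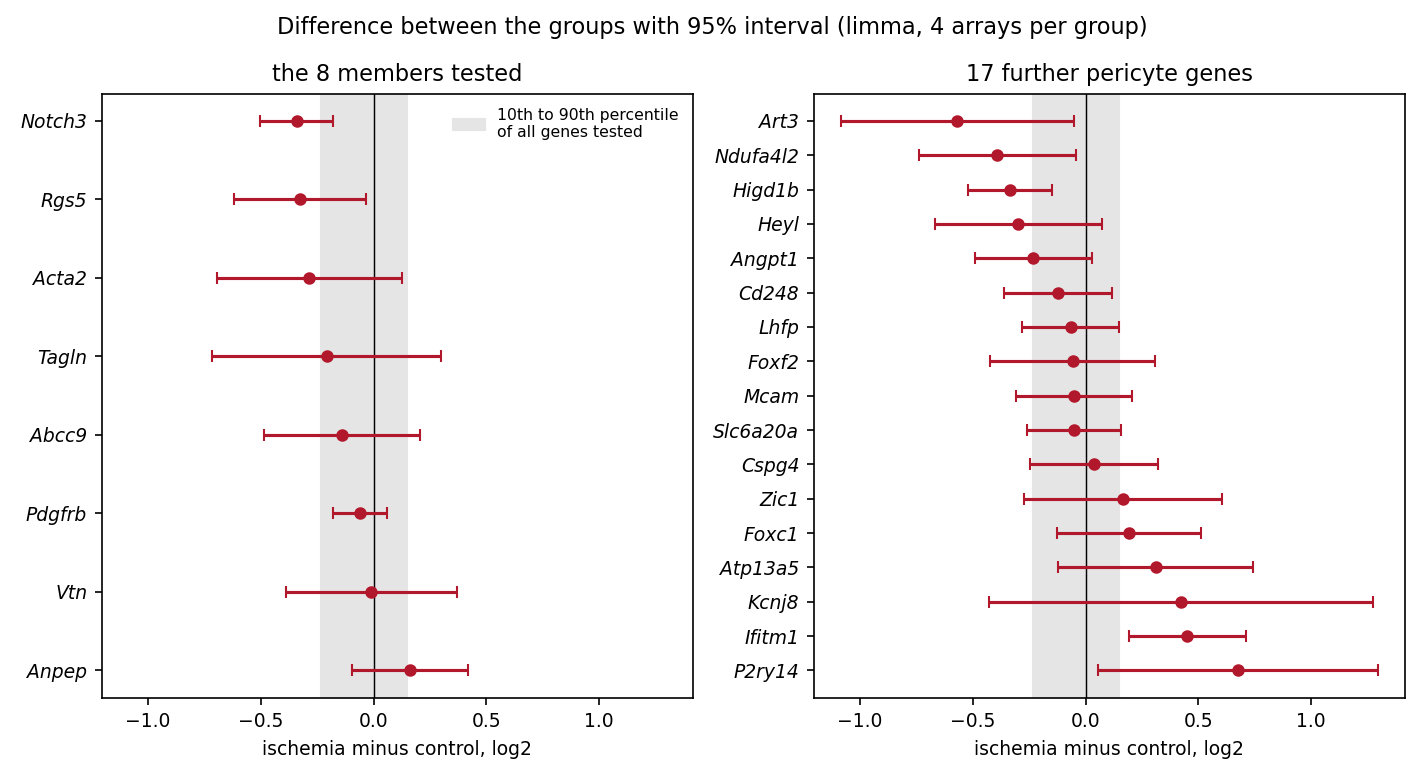
Difference between ischemia and control (log2) with its 95% interval for the 8 tested members on the left and the 17 measured further pericyte genes on the right, both sorted from lowest to highest. The grey band runs from the 10th to the 90th percentile of all genes tested (-0.23 to 0.15), and the intervals of Notch3, Rgs5, Higd1b, Ndufa4l2 and Art3 lie below 0 while those of Ifitm1 and P2ry14 lie above it, with P2ry14 well above background on only 1 control array.

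Across pups, 6 of the 8 tested members had their lowest signal in ischemia replicate 3. Correlations were computed over the 8 arrays for 45 pairs of members, 28 of them between measured genes. Of the 28, 22 were above 0, 5 had an unadjusted p under 0.05 and 0 passed after adjustment over all 45 (exact permutation tests, two-sided). How often other genes were lowest in ischemia replicate 3, or other gene pairs correlated this strongly, was not computed. These counts are therefore not shown to be particular to the members. The 3 pairs among Pdgfrb, Rgs5 and Notch3 were the ones with the smallest p. Pdgfrb and Rgs5 had r = 0.83 and rho = 0.90 (exact permutation p = 0.00437 and 0.00456, adjusted p = 0.0982 and 0.163), with r = 0.82 without 2 arrays. The 2 arrays left out, here and for the pairs below, were those farthest from the median of the first gene named. Pdgfrb and Notch3 had r = 0.82 and rho = 0.88 (exact permutation p = 0.00332 and 0.00724, adjusted p = 0.0982 and 0.163), again with r = 0.82 without 2 arrays. Rgs5 and Notch3 had r = 0.84 and rho = 0.81 (exact permutation p = 0.0120 and 0.0218, adjusted p = 0.180 and 0.245), with r = 0.64 without 2 arrays. Part of these values is the group difference of Notch3 and Rgs5. After each group's mean was subtracted, r was 0.70 to 0.71 for the 3 pairs.

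Anpep and Vtn had r = 0.86 and rho = 0.55 (exact permutation p = 0.0172 and 0.171, adjusted p = 0.194 and 0.641). Without the 2 arrays farthest from the Anpep median r was 0.54, so the size of the pooled r depends on them. With each group's mean subtracted, r was 0.99, with ischemia replicate 1 far from the rest on both genes. The contractile pair Acta2 and Tagln had r = 0.70 and rho = 0.48 (exact permutation p = 0.0564 and 0.243, adjusted p = 0.363 and 0.729), with r = 0.29 without 2 arrays.

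**Figure D3:**
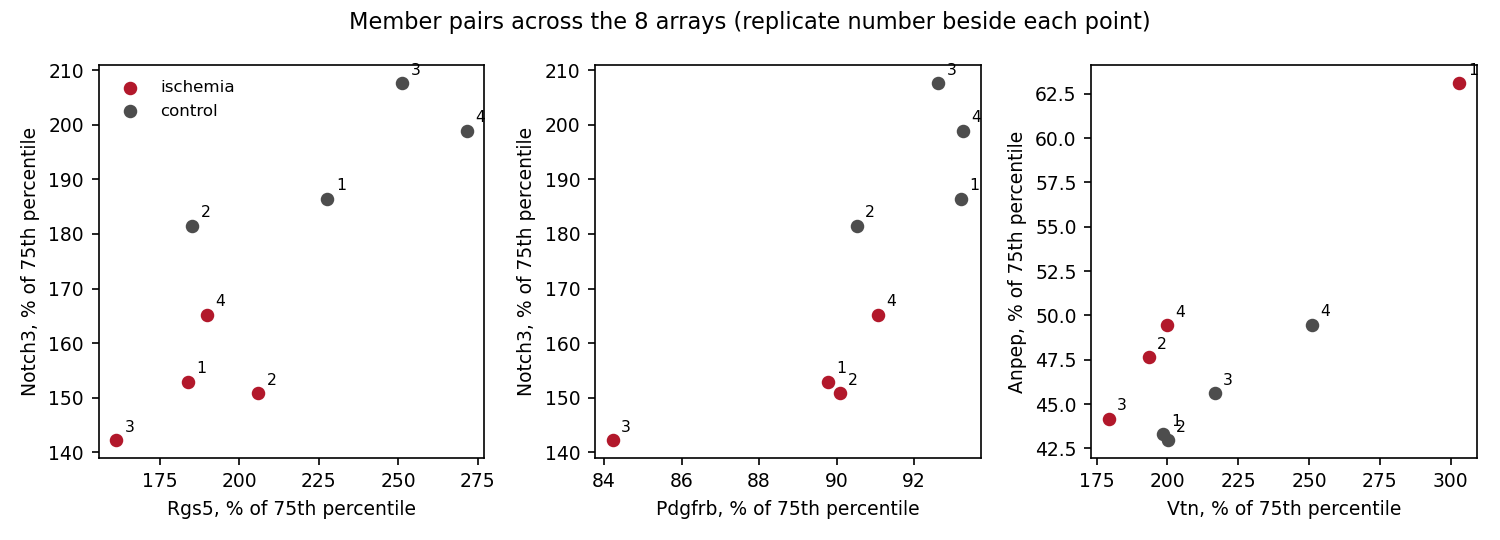
Signal of 3 pairs of members in percent of the array's 75th percentile, with 1 point per array (4 ischemia in red, 4 control in grey, replicate numbers beside the points). Notch3 follows Rgs5 and Pdgfrb with ischemia replicate 3 at the low end of both, and ischemia replicate 1 lies far from the other arrays on both Anpep and Vtn.

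A further 20 pericyte genes were listed, of which 17 were measured. Heyl and Angpt1 are among them and are counted again below, in the Notch list and in the TGF-beta and angiopoietin list. None passed after adjustment. At an unadjusted p under 0.05 there were 3 lower in ischemia, Higd1b, Ndufa4l2 and Art3, and 2 higher, Ifitm1 and P2ry14, and the median difference was -0.05. At that level 7.65% of all genes were lower and 3.25% higher. Without ischemia replicates 1 and 4 the counts in this list were 3 lower and 0 higher. Higd1b, a hypoxia-inducible domain family protein enriched in brain pericytes, had a signal of 301%, 303%, 242% and 272% in ischemia replicates 1 to 4, against 351%, 352%, 364% and 338% in the controls. As for Notch3, every ischemia pup lay below every control (difference -0.34, interval -0.52 to -0.15, limma adjusted p = 0.250). Ndufa4l2, a mitochondrial protein of pericytes, differed by -0.39 (adjusted p = 0.411), with the lowest value in ischemia replicate 3, without which the difference was -0.25. The ADP-ribosyltransferase gene Art3 differed by -0.57 (adjusted p = 0.418), and its 2 probes gave -0.67 and -0.57. Normexp background correction gave -0.28 for Art3.

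Ifitm1, an interferon-induced membrane protein gene, had a signal of 52.6%, 52.5%, 44.5% and 48.2% in ischemia replicates 1 to 4, against 31.4%, 35.8%, 34.1% and 44.4% in the controls. Every ischemia pup lay above every control (difference 0.45, interval 0.19 to 0.71, limma adjusted p = 0.258), a second probe gave 0.29, and without ischemia replicate 1 the difference was 0.30. Without ischemia replicates 1 and 4 it was 0.25. P2ry14, a receptor for UDP-glucose that is outside the naming rule and was singled out after its value was seen, was well above background on 4 ischemia arrays but on only 1 control array, so the size of its fitted difference is not given.

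Of 24 genes of contractile smooth muscle beyond the members, 15 were measured, 5 of them higher and 10 lower in ischemia, and 0 had an unadjusted p under 0.05 with limma (median difference -0.04). Myl9, the regulatory light chain of smooth muscle myosin, differed by -0.17 (adjusted p = 0.631; -0.077 without ischemia replicate 3) and Mylk, the kinase that phosphorylates it, by -0.44 (adjusted p = 0.606). Mylk lay at 12.5% to 16.4% in ischemia and at 14.1% to 18.0% in 3 controls, with control replicate 1 alone at 35.3%, and without it the difference was -0.15. Mrtfa and Mrtfb, coactivators of serum response factor, differed by 0.13 and 0.14 (adjusted p = 0.651 and 0.591), and a second Mrtfb probe gave -0.26. Lmod1, Actg2 and Pln, further genes of mature smooth muscle, were well above background on 0 of 8 arrays. The same held for the skeletal muscle genes Ckm, Myog and Mylpf, but 6 of the 12 listed skeletal and cardiac muscle genes were measured.

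Signals that reach mural cells from their neighbours were read next. Of 5 PDGF ligand and receptor genes besides Pdgfrb, 4 were measured and 0 had an unadjusted p under 0.05 with limma. Pdgfb, the ligand of the mural receptor, differed by -0.08 (interval -0.32 to 0.16, and -0.14 to -0.0035 with single arrays left out), Pdgfa by 0.0041, Pdgfc by 0.05 and Pdgfra, the receptor of fibroblasts and oligodendrocyte precursors, by 0.11. Of 13 Notch ligands and effectors, 12 were measured, 4 higher and 8 lower, with 0 at an unadjusted p under 0.05 with limma. Jag1, a ligand of Notch3, differed by -0.15 (interval -0.30 to 0.0028, adjusted p = 0.467), with 3 of 4 ischemia pups below all controls. Heyl, a target gene of Notch3 in mural cells, differed by -0.30 (interval -0.67 to 0.07, adjusted p = 0.550; -0.18 with normexp and -0.17 without ischemia replicate 1), Dll4 by -0.11 and Jag2 by 0.11.

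Of 16 genes of TGF-beta and angiopoietin signalling, 15 were measured and 1 had an unadjusted p under 0.05, where 10.9% of all genes did. It was Smad3, a signal transducer of TGF-beta (difference 0.24, interval 0.08 to 0.41, limma adjusted p = 0.322). Without ischemia replicates 1 and 4 the Smad3 difference was 0.18. In that setting 0 genes of this list were higher and 2 lower at an unadjusted p under 0.05. For Smad3 and Tgfb3 every ischemia pup lay above every control, as for 2.27% of all genes. Tgfb3 differed by 0.13 (adjusted p = 0.478), Angpt1, the angiopoietin that pericytes secrete, by -0.23 (adjusted p = 0.505; -0.14 without ischemia replicate 1) and the endothelial receptor gene S1pr1 by -0.12 (adjusted p = 0.675).

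**Figure D4:**
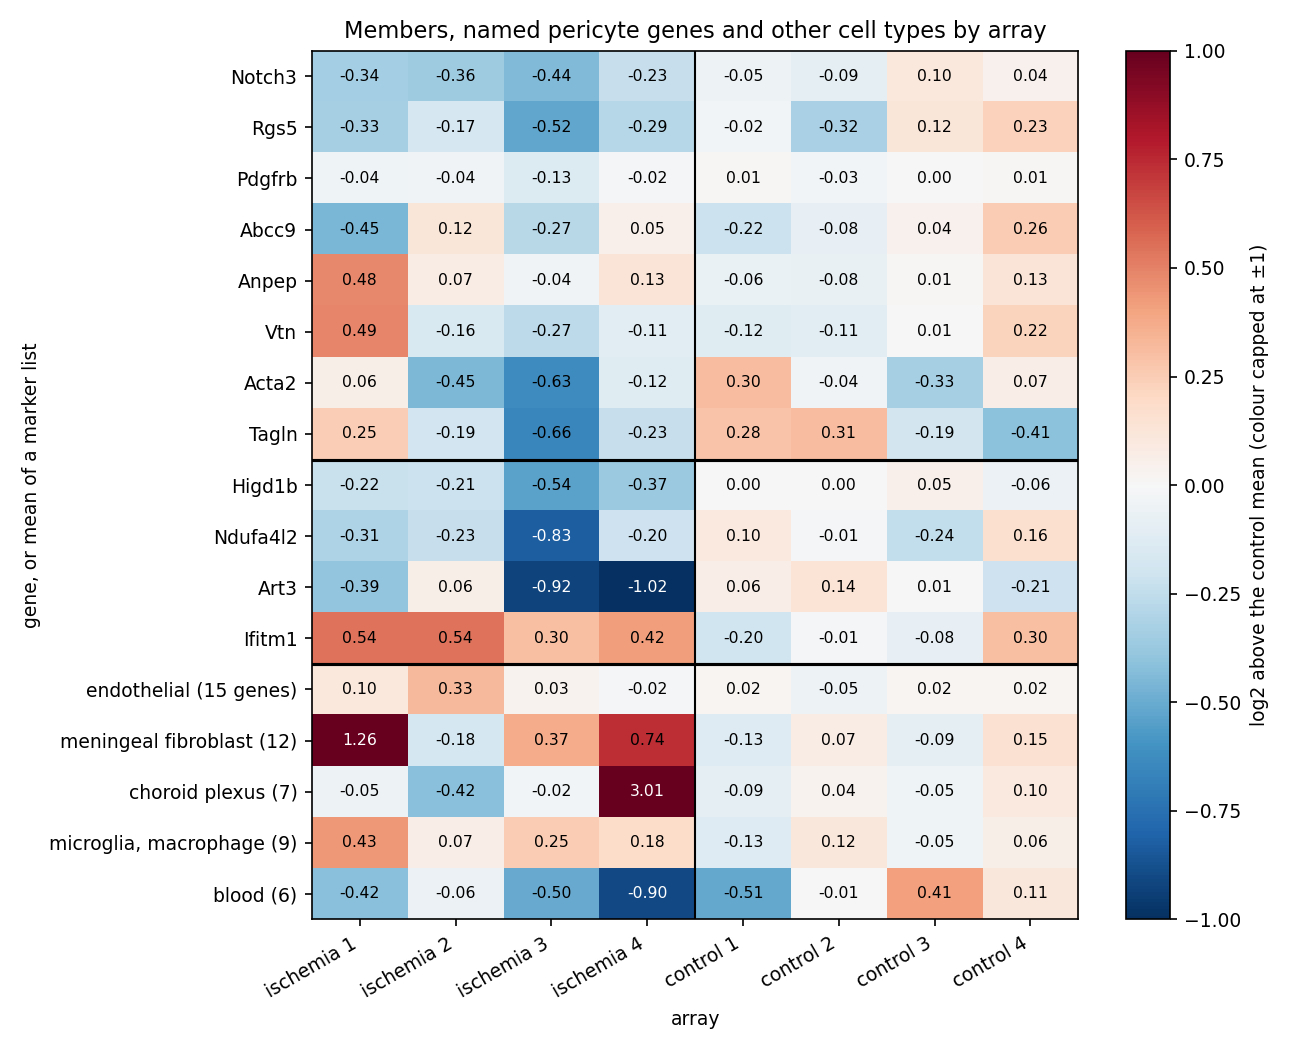
Log2 value above the control mean for each array (columns, ischemia left and control right), for the 8 tested members, 4 named pericyte genes and the means of 5 marker lists of other cell types, with colour capped at 1 in either direction. Notch3 is below 0 in all 4 ischemia arrays (-0.23 to -0.44), the meningeal mean is highest in ischemia replicates 1 and 4 (1.26 and 0.74), and the choroid plexus mean stands out in ischemia replicate 4 (3.01).

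Of 13 genes of the vascular basement membrane, all measured, 7 were higher and 6 lower, with Lama2 and Nid2, a laminin and a nidogen, at an unadjusted p under 0.05 (differences -0.24 and -0.21, adjusted p = 0.324 and 0.380). Both lay lower in every ischemia pup than in any control, as did 4.28% of all genes. Without ischemia replicates 1 and 4 the list had 3 genes higher and 10 lower, with a median difference of -0.05, against 0.01 with all arrays. Of 16 endothelial markers 15 were measured, and 5 were higher and 2 lower at an unadjusted p under 0.05, with Ly6c1 at 0.84 (adjusted p = 0.235) and Kdr at -0.31 (adjusted p = 0.243), for which a second probe gave -0.12. At that level 3.25% of all genes were higher and 7.65% lower. Among the 5, Emcn was well above background on 4 ischemia arrays but only 2 control arrays. Relative to the control mean, the endothelial list averaged 0.10, 0.33, 0.03 and -0.02 (log2) in ischemia replicates 1 to 4, against -0.05 to 0.02 in the controls. The members averaged 0.01, -0.14, -0.37 and -0.10 in the same pups, against -0.05 to 0.07 in the controls. Any difference between the lists was not tested.

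Of 9 measured microglia and macrophage genes 3 were higher and 1 lower at an unadjusted p under 0.05, with C1qa at 0.42 (adjusted p = 0.248) and P2ry12 at -0.30 (adjusted p = 0.370). At that level 3.25% of all genes were higher and 7.65% lower. All 6 measured blood cell genes were lower, 3 of them at an unadjusted p under 0.05, with Hba-a2 at -0.54 (adjusted p = 0.403) and Hbb-b2 at -0.57 (adjusted p = 0.419), globin genes that have near-identical copies. Of the fibroblast markers Ptgds differed by 2.35 (adjusted p = 0.393) and Igf2 by 0.34 (adjusted p = 0.400), and without ischemia replicates 1 and 4 by 0.65 and 0.22. With normexp Igf2 differed by 0.15. Of the choroid plexus genes Ttr differed by 2.74 (adjusted p = 0.694; well above background on 3 of 4 ischemia arrays) and Enpp2 by 0.28 (adjusted p = 0.558), and without these arrays by 0.25 and 0.0074. The microglia list averaged 0.07 to 0.43 relative to the control mean in ischemia, against -0.13 to 0.12 in control, and the blood list -0.90 to -0.06 in ischemia, against -0.51 to 0.41 in control. Of 6 measured skeletal and cardiac muscle genes, whose mean lay at -0.26 to 0.10 in ischemia and -0.07 to 0.04 in control, Tnni2 differed by -0.44 (adjusted p = 0.336; -0.20 with normexp) and Myh8 by -0.09 (adjusted p = 0.777). The neuronal genes Tubb3 and Neurod2 differed by -0.11 and 0.15 (adjusted p = 0.562 and 0.609). All adjusted p here are from limma, and the part of these cells in the members' values was not tested.

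By a rule on likeness, the 5 genes whose pattern over the 8 arrays was nearest to the mean of Acta2, Tagln, Cnn1 and Myh11 had r of 0.96 to 0.98 with it. These values are the highest of all genes tested and carry no test, and 2 of the 4 genes in that mean were below background. Of the 5, 2 have a gene name in the files, C630016N16Rik and Catsperd.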

How the data were processed

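RNA of each cortex was labelled with Cy3, per the labels' protocols (50 ng input). Agilent Feature Extraction 10.7.3.1 turned the scans into spot values, per the file headers. The values are intensities that the authors deposited: the processed signal, corrected for background by the software, and for an alternative the mean and local background signals. The authors' deposited value table is a ratio: within an array it is the processed signal scaled by a single constant of unknown meaning (deviation up to 0.00988% for table values above 0.5), and its medians per array are 0.0836 to 0.1003. It was used as an alternative. Direction is that of the signal.

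Control spots were left out, and so were spots marked as non-uniform or population outliers, and the 26 of 55681 probes that this left without a value on some array were dropped. Spots of a probe were averaged as log2 of the processed signal minus log2 of the array's 75th percentile (305.6 to 393.3). Probes well above background on at least 4 of 8 arrays were kept, and of a gene's kept probes the brightest. Of the probes, 27235 were named by accession, 3581 by current symbol and 565 by an older symbol in a RefSeq table of GRCm38.p6, and 24300 kept the files' name. The groups were compared with limma 3.58.1 in R 4.3.3 (lmFit, eBayes, Benjamini-Hochberg). The fit was also run on simulated data, with changes larger than those of any member and with independent noise. It was therefore not tried at the size of the member differences, or with effects shared by the genes of an array. The number of arrays limits the precision.

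Members and gene lists were chosen with earlier results of these data known. Named are all members and, in each other list, the genes that passed or else the 4 (lists of mural biology) or 2 (other lists) with the smallest p, and the 5 genes nearest in pattern to the contractile members. Further genes are named for a low signal or a single high array. The alternatives changed the background correction, the scaling, the filter, the choice of probe or the variance model, used the replicate number as a block or the authors' table, kept outlier spots, or left arrays out. Same-numbered pups are not stated to be related.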

Additional observations from a re-analysis of the deposited data

Results flagged for a closer look

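For 46 named genes, the 4 arrays of each group (92 sets) were examined for a lowest or highest value far from the rest, using the gap divided by the range (Dixon's ratio). There was 1 such value, where chance gives about 5% of independent sets. Ndufa4l2 was low in ischemia replicate 3, at 68.1% against 97.7% to 105% in the other ischemia arrays and 102% to 135% in the controls (ratio 0.835).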

How the results depend on the processing

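Members past the threshold numbered 0 under all 19 alternatives. Over all genes the count was 1, and 0 with normexp background correction, quantile scaling, no filter on dim probes, probes well above background on all 8 arrays, or ischemia replicates 1 and 4 left out, 2 with median scaling and 20 with a trended and robust variance. Leaving out single arrays gave 0 to 1. At an unadjusted p under 0.05 the count over all genes was 2151, against 1332 to 2404 under the alternatives. Notch3 kept its direction and an unadjusted p under 0.05 in all 19, and Rgs5 in 10. The 7 tested members other than Vtn kept their direction. The Vtn difference of -0.010 changed sign with normexp (0.010) and ranged from -0.177 to 0.076 with single arrays left out (0.039, 0.076 and 0.023 without ischemia replicates 2, 3 and 4, and 0.064 without control replicate 4). The cause was not tested. With the replicate number as a block 0 genes passed, and Acta2 had an unadjusted p of 0.00627. Deviations of same-numbered pups correlated at 0.0838, -0.0552, 0.288 and 0.391 for replicates 1 to 4. Replicates 3 and 4 correlated best with their own number, and replicates 1 and 2 did not. Whether same-numbered pups share more than a number cannot be told from these values. Signal over background limits Cnn1 and Myh11, and the dim Acta2 spots.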
